A study of Sus scrofa with 6 samples.

Results

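The genes described here encode the receptors and converting enzymes through which corticosteroids and thyroid hormone act in the heart. They were chosen by symbol: the glucocorticoid receptor NR3C1, the mineralocorticoid receptor NR3C2, the 11β-hydroxysteroid dehydrogenases HSD11B1 and HSD11B2, the thyroid hormone receptors THRA and THRB, the deiodinase DIO2 and the estrogen receptor ESR1. Of these 8 genes, 6 had a row in the deposited table of 13288 genes. HSD11B2 and ESR1 had no row under their symbol or their Ensembl identifier, so no level is given for either.

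RNA was sequenced from ventricular tissue of 6 male Tibetan minipigs, 3 in the sham group (replicates 1 to 3) and 3 with descending aortic constriction, DAC (replicates 4 to 6). DAC narrows the thoracic aorta and loads the heart with pressure, and the study used it to model heart failure in which the ejection fraction is preserved. The tissue was collected at week 12 after surgery, and no drug or genetic change separated the groups. Which ventricle was sampled for sequencing, and the age of the animals, are not given in the sources used here. The values are FPKM, which correct fragment numbers for the length of the transcript and the total mapped in each sample. Read numbers cannot be recovered from FPKM, so the spread between minipigs is the only measure of precision.

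The receptors are transcription factors that are switched by small hormones. The glucocorticoid and mineralocorticoid receptors both bind cortisol, and enzymes inside the cell set how much of it reaches them: HSD11B1 regenerates cortisol from inactive cortisone, and HSD11B2 carries out the opposite step. Cardiomyocytes have little HSD11B2, so their mineralocorticoid receptors are thought to be occupied largely by cortisol. Thyroid hormone enters as thyroxine and is activated by DIO2 and inactivated by DIO3. THRA is the main cardiac thyroid hormone receptor, and it pairs with retinoid X receptors (RXR) on the genes it controls.

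The first question was whether the transcript levels of these genes differed after pressure overload. None of the 6 measured genes differed between DAC and sham by limma's moderated test on log2(FPKM + 1), either at an unadjusted P under 0.05 or after adjustment, where the adjusted P lay between 0.872 and 0.99. By the same test 939 of the 11029 genes tested (8.51%) passed the unadjusted threshold, 358 upregulated and 581 downregulated, and 0 had an adjusted P under 0.05. The groups overlapped in all 6 genes, beside 14.9% of all genes tested in which they did not overlap. With only 6 genes, neither the calls nor the overlap sets them apart from all genes tested. The median log2 fold change of the 6 genes was -0.06, against -0.016 over all genes tested. Fold changes are on the log2(FPKM + 1) scale throughout, which understates the change of low genes.

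**Figure D1:**
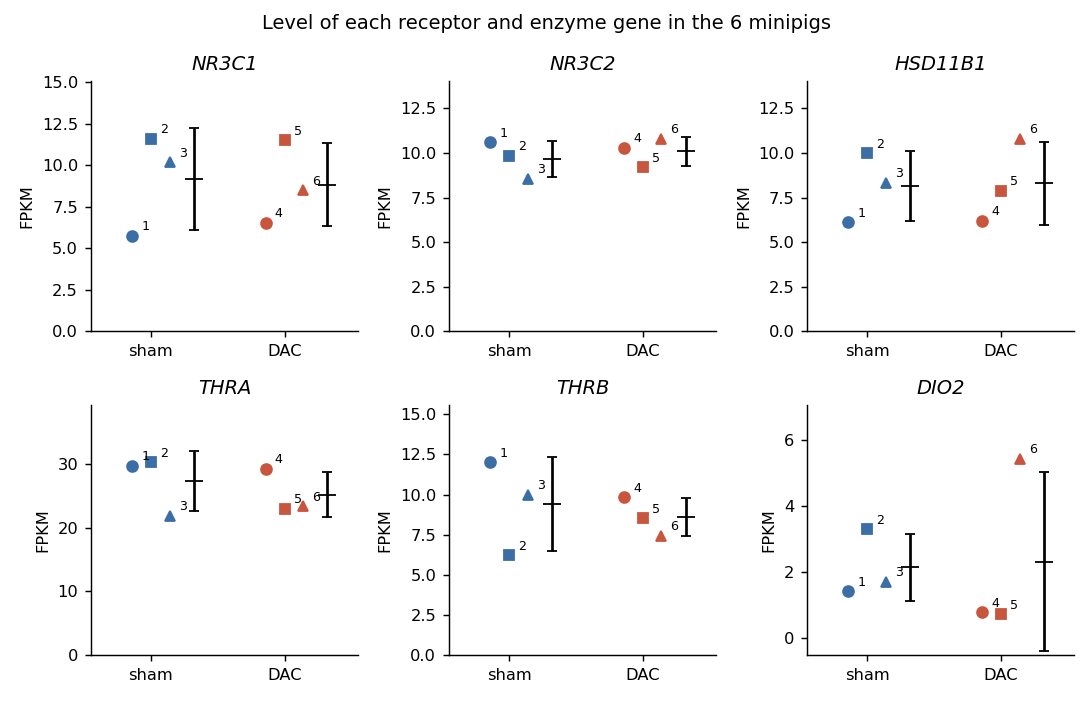
FPKM (vertical axis, a scale of its own for each gene) of the 6 measured genes in each sham and DAC minipig, numbered by replicate, with the mean ± SD of each group as a bar. The groups overlap in every panel, and in the DIO2 panel 1 DAC minipig at 5.44 FPKM stands above all others, so that the SD bar of the DAC group reaches below 0.

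Of the corticosteroid receptors, NR3C1, which mediates the action of cortisol in most tissues, lies on the minus strand of Sscrofa11.1 at chr2:144822937-144956095. Its level was 5.75, 11.6 and 10.2 FPKM in sham replicates 1 to 3 and 6.53, 11.5 and 8.49 FPKM in DAC replicates 4 to 6. Each group held 1 minipig with a low value and 1 with a value near 11.5, so the spread within a group covered nearly the whole range. The mean was 9.21 ± 3.08 FPKM (SD, n = 3) in sham and 8.85 ± 2.52 FPKM (SD, n = 3) in DAC. The log2 fold change was -0.03 with a standard error of 0.28 (limma, adjusted P = 0.981). Its 95% confidence interval runs from 0.622-fold to 1.54-fold, so a moderate change in either direction would not have been detected. The residual SD of NR3C1 was larger than that of 92.3% of the genes tested.

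NR3C2, the receptor for aldosterone and the target of spironolactone, lies on the plus strand at chr8:80290715-80669404. It gave 10.6, 9.85 and 8.56 FPKM in sham and 10.3, 9.19 and 10.8 FPKM in DAC. These were the most even values of the 6 genes, and the highest minipig exceeded the lowest by a factor of 1.26. The means were 9.68 ± 1.05 FPKM in sham and 10.1 ± 0.832 FPKM in DAC (SD, n = 3 each), a log2 fold change of 0.06 with a standard error of 0.12 (limma, adjusted P = 0.906). The interval of 0.857-fold to 1.26-fold was the narrowest of the 6.

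The quotient NR3C1/NR3C2 within each minipig was 0.54, 1.18 and 1.2 in sham and 0.635, 1.25 and 0.784 in DAC. Both groups contained a minipig with clearly less NR3C1 than NR3C2 and a minipig with slightly more. The mean log2 quotient of DAC minus that of sham was -0.10, and an exact two-sided permutation test gave P = 1.0. With 3 minipigs against 3, no P under 0.10 can be reached by that test.

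HSD11B1, on the minus strand at chr9:133231451-133278396, gave 6.12, 10 and 8.33 FPKM in sham and 6.19, 7.89 and 10.8 FPKM in DAC. Low, middle and high values occurred in both groups. The means of 8.17 ± 1.97 and 8.29 ± 2.33 FPKM (SD, n = 3 each) gave a log2 fold change of 0.01 with a standard error of 0.23 (limma, adjusted P = 0.99) and an interval of 0.697-fold to 1.46-fold. The row shares 21622 bases with that of C1orf74 on the opposite strand, which was at 0.553 to 1.24 FPKM. Whether strand was used in the counting is not stated, so the value of HSD11B1 is uncertain by the reads of the shared stretch.

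H6PD supplies the NADPH that keeps HSD11B1 working in the direction of cortisol. It was at 16.4, 12.5 and 13.6 FPKM in sham and at 13.7, 13.7 and 10.1 FPKM in DAC (log2 fold change -0.17, standard error 0.16, limma, adjusted P = 0.78). The highest value was in a sham minipig and the lowest in a DAC minipig, with overlap between them. The quotient HSD11B1/H6PD was 0.373, 0.806 and 0.614 in sham and 0.45, 0.576 and 1.06 in DAC, a log2 difference of 0.19 with an exact permutation P of 0.8. A quotient of HSD11B1 to HSD11B2 could not be formed.

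Of the thyroid hormone receptors, THRA was the most highly expressed of the 6 genes. It lies on the minus strand at chr12:22270062-22296618 and gave 29.8, 30.3 and 21.9 FPKM in sham and 29.3, 23.0 and 23.4 FPKM in DAC. Of the 3 values near 30 FPKM, 2 were from sham and 1 from DAC. The means were 27.3 ± 4.72 and 25.2 ± 3.57 FPKM (SD, n = 3 each), a log2 fold change of -0.11 with a standard error of 0.16 (limma, adjusted P = 0.872) and an interval of 0.712-fold to 1.21-fold. This was the smallest P of the 6 genes.

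The end of THRA overlaps NR1D1, a repressor of the circadian clock, by 1582 bases on the opposite strand. NR1D1 was at 6.45, 9.36 and 14.3 FPKM in sham and 14.3, 10.9 and 7.78 FPKM in DAC (log2 fold change 0.15, standard error 0.30, limma, adjusted P = 0.904). Its values ranged as widely within each group as between them. THRA also shares 473 bases with MED24, at 10.1 to 12.4 FPKM. As for HSD11B1, the value of THRA, and any quotient formed with it, is uncertain by the reads of the shared stretches. The genes whose deviations across the 6 minipigs were most like those of THRA were SLC39A10, RAI1, BMT2, SBSN and CASZ1, with a root mean square difference of 0.04 to 0.06 on the log2(FPKM + 1) scale. SLC39A10 and SBSN averaged 1.06 and 1.03 FPKM, near the minimum for testing, where the added 1 FPKM shrinks deviations.

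THRB, on the minus strand at chr13:10900718-11359544, gave 12, 6.22 and 9.98 FPKM in sham and 9.84, 8.53 and 7.44 FPKM in DAC. The highest and the lowest value were both from sham minipigs, and the DAC values lay between them. The means were 9.41 ± 2.94 and 8.60 ± 1.20 FPKM (SD, n = 3 each), a log2 fold change of -0.08 with a standard error of 0.22 (limma, adjusted P = 0.935) and an interval of 0.657-fold to 1.36-fold. The quotient THRA/THRB was 2.49, 4.87 and 2.19 in sham and 2.98, 2.69 and 3.14 in DAC. THRA therefore exceeded THRB in every minipig, and the log2 quotient differed by -0.02 between the groups (exact permutation P = 1.0).

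The partners of the thyroid hormone receptors were measured as well. RXRA gave 18.2, 17.3 and 14.7 FPKM in sham and 14.6, 14.6 and 14.7 FPKM in DAC, with means of 16.7 ± 1.81 and 14.7 ± 0.0312 FPKM (SD, n = 3 each). Its groups did not overlap, but sham replicate 3 lay close to the DAC minipigs, and the log2 fold change of -0.18 did not pass the test (standard error 0.11, limma, adjusted P = 0.677). RXRB had a log2 fold change of -0.12 (limma, adjusted P = 0.783). RXRG, the member of this family enriched in muscle, had the highest level of the 3, between 31.1 and 34.2 FPKM in sham and between 25.8 and 35.6 FPKM in DAC, and a log2 fold change of -0.04 (limma, adjusted P = 0.947).

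DIO2, which converts thyroxine to the active hormone, was the lowest and by far the most variable of the 6 genes. Its level was 1.43, 3.31 and 1.71 FPKM in sham and 0.783, 0.726 and 5.44 FPKM in DAC. DAC replicates 4 and 5 lay below every sham minipig, and DAC replicate 6 lay above every sham minipig. The mean was 2.15 ± 1.01 FPKM in sham and 2.32 ± 2.70 FPKM in DAC (SD, n = 3 each). The mean was thus slightly higher in DAC while the log2 fold change was -0.17 with a standard error of 0.51 (limma, adjusted P = 0.94), and the interval of 0.383-fold to 2.05-fold was the widest of the 6. With a pseudocount of 0.1 in place of 1 the log2 fold change was -0.41. The residual SD was larger than that of 98.9% of the genes tested.

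The DIO2 comparison turned on that minipig. Without DAC replicate 6 the log2 fold change was -0.80 (limma, adjusted P = 0.502), which passed the unadjusted threshold, as none of the 6 genes did when any other sample was left out. The filter was set on all 6 samples. Without DAC replicate 6, DIO2 reached 1 FPKM only in sham, so this call is not evidence of a difference. DAC replicate 6 was also highest for the atrial muscle genes MYL4 (2.03, 3.79 and 1.08 FPKM in sham, 9.22, 0.780 and 17.6 FPKM in DAC) and SLN (0.278, 1.01 and 0.403 FPKM in sham, 1.44, 0.932 and 9.83 FPKM in DAC). These are 2 of the 3 atrial and conduction markers measured. MYL7, NPPA and HCN4 had no row under their symbols, which does not show that they were not expressed. The summed level of the 3 was 6.46 to 8.38 FPKM in sham and 7.62 to 34.3 FPKM in DAC, and their part in the result was not tested. The DIO2 row spans 226834 bases, chr7:103096425-103323258 on the minus strand, whereas the RefSeq gene of Sscrofa11.1 spans 14336 bases. Whether reads from the rest of that span entered the value was not tested.

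DIO3, which inactivates thyroid hormone and is known to be re-expressed in some diseased hearts, was at 0.730, 0.368 and 0.630 FPKM in sham and 0.0441, 0.370 and 0.212 FPKM in DAC. All values were below the minimum for testing, and the groups met only between sham replicate 2 and DAC replicate 5. The quotient DIO2/DIO3 was 1.96, 8.99 and 2.72 in sham and 17.8, 1.96 and 25.6 in DAC. Its log2 difference of 1.41 did not pass the exact permutation test (P = 0.4) and fell to 0.21 when 1 FPKM was added to both values. The deiodinase DIO1 had no row under its symbol. After Benjamini-Hochberg adjustment over the 4 quotients compared, all adjusted P values were 1.0.

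**Figure D2:**
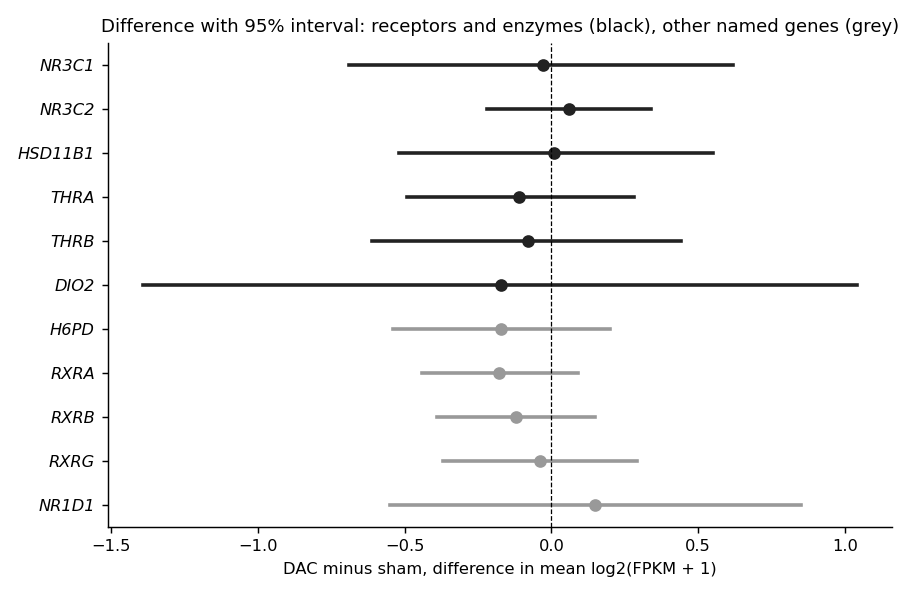
Log2 fold change of DAC against sham on the log2(FPKM + 1) scale (horizontal axis), with its 95% confidence interval from limma as a bar, for the 6 receptor and enzyme genes and, in grey, the other genes named with them. Every interval includes 0, that of NR3C2 is the narrowest of the 6 genes and that of DIO2 the widest.

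FPKM is scaled by transcript length, so the levels of different genes can be set side by side. Their order is subject to the limits given above: the shared stretches of HSD11B1 and THRA, and the long DIO2 row. THRA was above NR3C2 in 6 of 6 minipigs, and its lowest value of 21.9 FPKM was above the highest NR3C2 value of 10.8 FPKM. NR3C2, NR3C1, THRB and HSD11B1 followed at similar levels and could not be ordered: NR3C2 exceeded NR3C1 in 3 of 6 minipigs, NR3C1 exceeded THRB in 4 of 6, and THRB exceeded HSD11B1 in 4 of 6. HSD11B1 was above DIO2 in 6 of 6, with 6.12 FPKM as its lowest value and 5.44 FPKM as the highest DIO2 value. Among all genes tested, THRA had a mean level above 87.3% of genes and DIO2 above 18.8%, and the median gene was at 5.96 FPKM.

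Whether the genes varied together from minipig to minipig was examined over the 15 pairs. HSD11B1 and DIO2 had the largest positive Pearson correlation (r = 0.83, exact permutation P = 0.0333, adjusted P = 0.313) with a Spearman rho of 0.77 (exact permutation P = 0.103). Without the 2 samples farthest from the median of HSD11B1, r was 0.86. HSD11B1 and THRB had the largest negative correlation (r = -0.85, exact permutation P = 0.0417, adjusted P = 0.313), with a rho of -0.77 (exact permutation P = 0.103). Without the same 2 samples r was -0.78. Samples far from the median of DIO2 or THRB were not left out. No pair passed the adjustment, and groups of 3 are too small for values within a group.

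**Figure D3:**
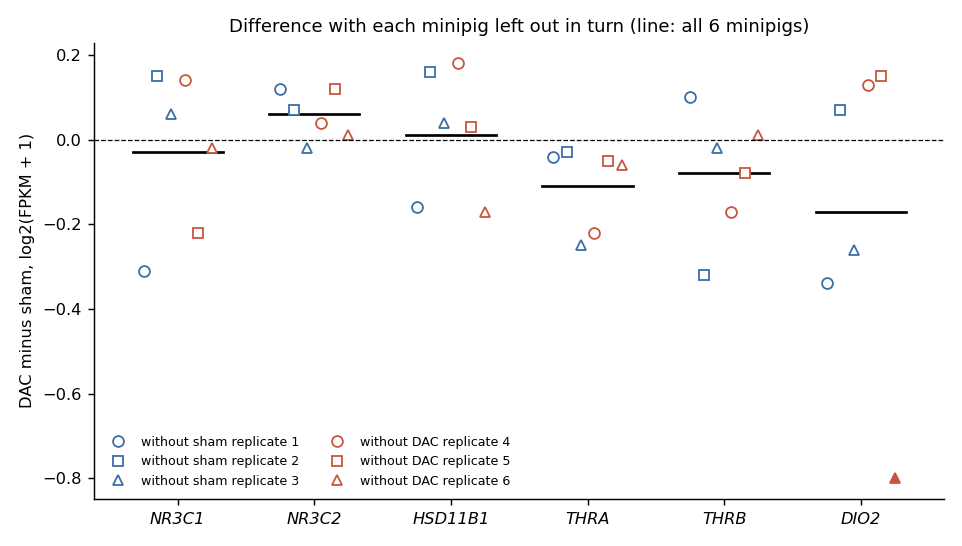
Log2 fold change (vertical axis, log2(FPKM + 1) scale) of each of the 6 genes (horizontal axis), with all 6 minipigs and with each left out in turn. A filled marker has an unadjusted limma P under 0.05. The only filled marker is DIO2 without DAC replicate 6, at -0.80, where DIO2 reached 1 FPKM only in sham. THRA alone keeps its sign in every case.

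The proteins around these receptors and the genes they are known to control were described from 10 lists. Of 171 genes listed, 131 were in the table and 118 were tested, and 14 (11.9%) passed the unadjusted threshold, against 8.51% of all genes tested. Of these, 2 were upregulated and 12 downregulated. The median log2 fold change over the tested list genes was -0.07. None of the 14 had an adjusted P under 0.05, and 7 of them were corticosteroid-induced genes. The lists were written with earlier results of these data known, so the share called is not independent evidence. In bulk tissue, fewer cells of a type and less RNA per cell cannot be told apart.

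Calls among the genes of proteins that work with the receptors are given beside the 8.51% of all genes tested. Of the receptor partners and related receptors, 0 of 11 tested passed (limma, unadjusted P), with a median log2 fold change of -0.04. Of the 16 receptor chaperones, 1 passed, with a median of -0.04. Of the 19 coregulators, 1 passed, with a median of -0.03. PPARGC1A, a coactivator of mitochondrial gene expression, was upregulated from 24.4, 25.6 and 20.1 FPKM in sham to 34.0, 25.3 and 46.7 FPKM in DAC (log2 fold change 0.54, standard error 0.22, limma, adjusted P = 0.584). DAC replicate 5 lay within the sham range, and the call was lost in 6 of 14 alternatives, among them without DAC replicate 6, where the log2 fold change was 0.32.

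The 1 chaperone was FKBP5, an HSP90 partner that lowers the hormone affinity of the glucocorticoid receptor and is itself induced by glucocorticoids. It was downregulated from 26.9, 31.0 and 31.5 FPKM in sham to 14.1, 18.4 and 9.85 FPKM in DAC. The highest DAC minipig lay well below the lowest sham minipig. The log2 fold change was -1.07 with a standard error of 0.21 (limma, adjusted P = 0.379), and the unadjusted call held in all 14 alternatives, where the log2 fold change ran from -1.26 to -0.85.

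Of the 13 steroid hormone enzymes tested, 1 passed and the median log2 fold change was -0.17. FDX1, the ferredoxin that passes electrons to mitochondrial steroid hydroxylases and to other mitochondrial pathways, was downregulated from 5.80, 5.92 and 6.37 FPKM to 4.51, 4.32 and 5.30 FPKM (log2 fold change -0.30, standard error 0.11, limma, adjusted P = 0.553). The call was lost in 4 of 14 alternatives, without sham replicate 2 or 3 or without DAC replicate 4 or 5, with log2 fold changes of -0.31 to -0.25. The aldosterone and cortisol synthases and 17α-hydroxylase, CYP11B2, CYP11B1 and CYP17A1, had no row under their symbols. Of the adrenal and thyroid tissue markers only STAR was listed, at 3.26 to 4.44 FPKM in sham and 3.57 to 3.82 FPKM in DAC.

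Of 20 tested genes induced by corticosteroids, 7 were downregulated and 0 upregulated (limma, unadjusted P), beside 8.51% called in either direction over all genes tested. A negative log2 fold change was seen in 19, and the median was -0.33. Glucocorticoid-induced genes had already been examined in these samples when the list was written, so the list is not independent evidence of a direction. DDIT4, an inhibitor of mTOR signaling, was at 83.1, 90.1 and 78.1 FPKM in sham and 53.0, 46.2 and 45 FPKM in DAC (log2 fold change -0.79, standard error 0.11, limma, adjusted P = 0.222). ANGPTL4, an inhibitor of lipoprotein lipase, was at 9.75, 12.7 and 11.0 FPKM in sham and 6.0, 4.5 and 6.40 FPKM in DAC (log2 fold change -0.88, standard error 0.15, limma, adjusted P = 0.335). The transcription factor CEBPB was at 91.9, 86.7 and 77.9 FPKM in sham and 68.8, 40.8 and 52.3 FPKM in DAC (log2 fold change -0.68, standard error 0.19, limma, adjusted P = 0.5).

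In DDIT4, ANGPTL4, CEBPB and FKBP5 every DAC minipig lay below every sham minipig. These genes were named for the smallest P of their list, so the separation is no added evidence. Over all genes tested the groups did not overlap in 14.9%. SGK1, a kinase gene induced through both corticosteroid receptors, averaged 12.8 FPKM in sham and 13.0 FPKM in DAC, with a log2 fold change of -0.02 (limma, adjusted P = 0.988), and TSC22D3, a glucocorticoid-induced leucine zipper gene, averaged 13.6 and 11.3 FPKM (log2 fold change -0.23, limma, adjusted P = 0.651). These 2 were chosen after their values were seen. NR3C1, the receptor for the hormones of this list, had overlapping groups, as given above.

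**Figure D4:**
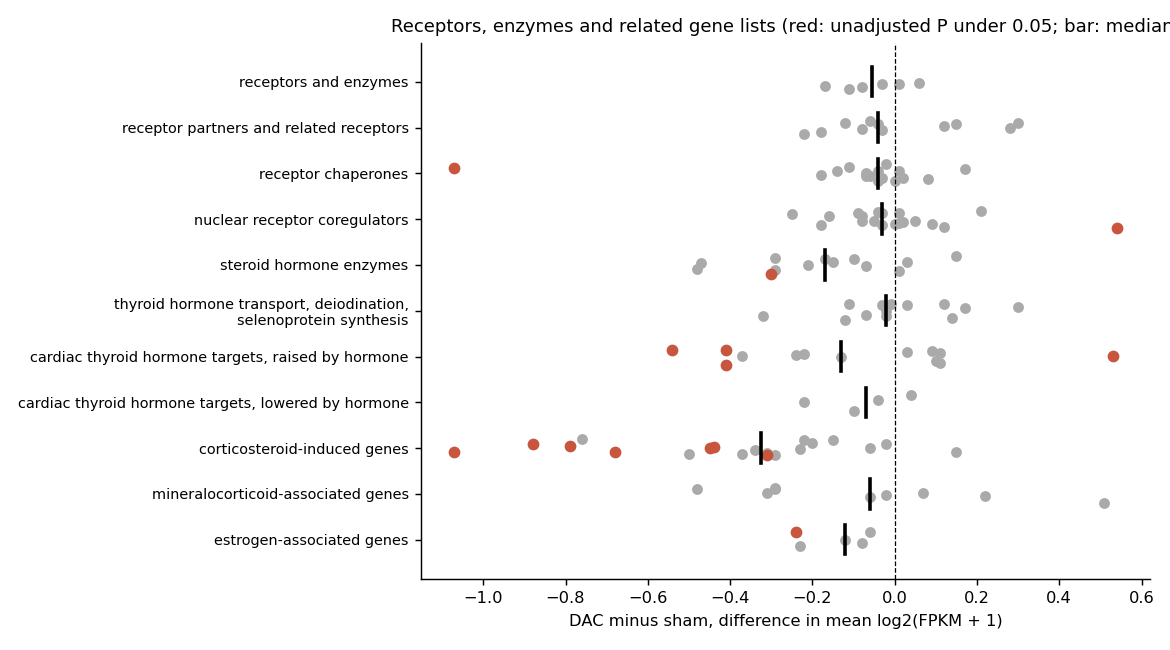
Log2 fold change of DAC against sham on the log2(FPKM + 1) scale (horizontal axis) for the 6 receptor and enzyme genes and each tested gene of the 10 lists, with the genes at an unadjusted limma P under 0.05 in red and the median of each list as a bar. The corticosteroid-induced genes lie mostly below 0 with a median of -0.33 and 7 red points, and FKBP5 appears in both this list and that of the chaperones.

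Thyroid hormone handling showed 0 calls among 13 tested genes of transport, deiodination and selenoprotein synthesis (limma, unadjusted P), with a median log2 fold change of -0.02. Of 13 tested cardiac genes that thyroid hormone raises, 3 were downregulated and 1 was upregulated, beside 8.51% called over all genes tested. The median was -0.13 and ran from -0.303 to -0.004 over the alternatives, and the number called fell from 4 to 1 without sham replicate 1 and to 2 without sham replicate 3 or with the variance of each gene on its own. ADRB1, the main cardiac β-adrenergic receptor, was at 34.1, 32 and 27.0 FPKM in sham and 20.3, 18.8 and 24.1 FPKM in DAC (log2 fold change -0.54, standard error 0.14, limma, adjusted P = 0.482). SLC2A4, the insulin-responsive glucose transporter, was at 98.2, 102 and 91.0 FPKM in sham and 61.2, 83.4 and 75.6 FPKM in DAC (log2 fold change -0.41, standard error 0.14, limma, adjusted P = 0.531). The SLC2A4 call was lost without sham replicate 1 or 2, with log2 fold changes of -0.40 and -0.37. In ADRB1 and SLC2A4, named because they were called, the groups did not overlap, as they did not in 14.9% of all genes tested.

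RYR2, the calcium release channel of the sarcoplasmic reticulum, was at 424, 293 and 380 FPKM in sham and 308, 234 and 279 FPKM in DAC, so that sham replicate 2 lay within the DAC range (log2 fold change -0.41, standard error 0.17, limma, adjusted P = 0.585). Its call was lost in 7 of 14 alternatives, among them quantile normalization (log2 fold change -0.29) and leaving out sham replicate 1 or 3 or DAC replicate 5 or 6 (-0.43 to -0.30). The mitochondrial carrier gene UCP2 was upregulated, at 4.16, 4.99 and 4.84 FPKM in sham and 5.51, 10.2 and 6.44 FPKM in DAC (log2 fold change 0.53, standard error 0.20, limma, adjusted P = 0.579). This call was lost in 5 of 14 alternatives: with the variance of the gene on its own and without any 1 of the sham replicates or without DAC replicate 5, and in that last case the log2 fold change was 0.30. ATP2A2, the calcium pump SERCA2 and a standard target of thyroid hormone, averaged 455 and 418 FPKM with a log2 fold change of -0.13 (limma, adjusted P = 0.847). Of 4 tested cardiac genes that the hormone lowers, 0 passed (limma, unadjusted P), the median was -0.07, and MYH7 averaged 1900 FPKM in sham and 1850 FPKM in DAC (log2 fold change -0.04, limma, adjusted P = 0.92). ATP2A2 and MYH7 were chosen after their values were seen.

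Of 9 tested genes associated with mineralocorticoid action, 0 passed (limma, unadjusted P) and the median log2 fold change was -0.06. Of 5 tested estrogen-associated genes, 1 passed and the median was -0.12. XBP1, a transcription factor of the unfolded protein response, was downregulated from 18.5, 17.6 and 16.8 FPKM to 15.2, 14.5 and 14.6 FPKM (log2 fold change -0.24, standard error 0.10, limma, adjusted P = 0.584), a call lost in 8 of 14 alternatives.

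Some cell type markers and the share of mitochondrial transcripts moved with the groups. Calls are by unadjusted limma P, beside 8.51% over all genes tested, and no marker had an adjusted P under 0.05. Of 11 fibroblast markers 5 were upregulated: COL1A1, COL1A2, COL3A1, LUM and POSTN. The others were not called: PDGFRA (log2 fold change 0.24), DCN (-0.01), DPT (0.08), TCF21 (-0.02), FAP (0.49) and THY1 (0.08). The summed level of the 11, to which the collagens contribute much, was 558 to 645 FPKM in sham and 772 to 884 FPKM in DAC. The 10 cardiomyocyte markers in the table summed to 15000 to 15600 FPKM in sham and 14200 to 17100 FPKM in DAC, with 1 of them, RYR2, downregulated. MYH6 and PLN had no row under their symbols. The endothelial markers gave 2 upregulated and 2 downregulated of 10, the smooth muscle and pericyte markers 1 upregulated of 9, and the leukocyte markers 1 downregulated of 6 tested. The summed adipocyte markers (103 to 187 FPKM in sham, 108 to 122 FPKM in DAC) and red blood cell markers (11.2 to 38.5 and 5.86 to 38.2 FPKM) overlapped. The mitochondrially encoded genes made up 24.0% to 25.3% of summed FPKM in sham and 27.1% to 32.8% in DAC. With those genes left out and the rest rescaled, the share of downregulated genes among all calls went from 61.9% to 44.8%. The part of these differences in the results was not tested.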

How the data were processed

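The authors deposited 1 table of FPKM with a column for each minipig and no pooled samples. Total RNA was made into NEBNext Ultra libraries and read from both ends on a HiSeq instrument. The submitters' processing notes name HISAT2 and the build susScr11, whereas the quantification program and its handling of strand and shared reads are not given in the sources used here. Each listed gene reaches 0.5 FPKM in at least 1 sample, and 519 symbols were filled in from gene identifiers. A further 1921 genes stayed without a symbol. List genes were sought by symbol or synonym only, so one without a row may be among those. Summed FPKM per sample was 281377 to 308771. Depth is unknown, and no steps of whole reads were visible.

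Genes with at least 1 FPKM in 3 of 6 samples were compared as log2(FPKM + 1) with limma 3.58.1 in R 4.3.3 (moderated test, variance trend). Genes were called at an unadjusted P under 0.05, the study's threshold, and P was also adjusted by Benjamini-Hochberg over all genes tested. The limma step was run on simulated data, with an outcome not given here. Quotients and correlations used exact two-sided permutation tests (Python 3.11.15, scipy 1.17.1), and figures matplotlib 3.10.9.

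The genes and lists were chosen with earlier results of these data known. Named are all 8 genes, their direct partners, the called genes of each list (the 4 with the smallest P where more were called), the 5 genes most like the gene with the smallest P, and overlapping genes. Alternatives changed the filter, pseudocount, scaling and variance estimate, or left out each sample in turn. No gene sequences were used.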

Additional observations from a re-analysis of the deposited data

How the results depend on the processing

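Across 14 alternatives, 0 of the 6 receptor and enzyme genes passed the unadjusted P threshold of 0.05, except that leaving out single samples gave 0 to 1 (DIO2 without DAC replicate 6, log2 fold change -0.80). In that case DIO2 reached 1 FPKM only in sham. DIO2 was not tested with a minimum of 5 FPKM. Leaving out single samples, the log2 fold change ran from -0.31 to 0.15 for NR3C1, from -0.02 to 0.12 for NR3C2, from -0.17 to 0.18 for HSD11B1, from -0.25 to -0.03 for THRA, from -0.32 to 0.10 for THRB and from -0.80 to 0.15 for DIO2, so the sign was not stable except for THRA. With the mitochondrially encoded genes left out NR3C1 was at 0.01. The log2 quotients ran from -0.48 to 0.12 (NR3C1/NR3C2), from -0.16 to 0.46 (HSD11B1/H6PD), from -0.25 to 0.33 (THRA/THRB) and from 0.70 to 2.55 (DIO2/DIO3) when single samples were left out. The number of genes called was 939, 579 with a minimum of 5 FPKM, where fewer genes were tested, and 600 to 1029 without single samples, the lowest without sham replicate 1. The share of downregulated calls was 61.9%, 52.8% with median scaling, 52.9% with quantile normalization and 44.8% without the mitochondrially encoded genes. The number of list genes called was 14, and 8 to 18 without single samples (8 without sham replicate 3, 9 without DAC replicate 6). The corticosteroid-induced genes called were 5 to 10, and the genes raised by thyroid hormone 1 without sham replicate 1. FKBP5, ADRB1, DDIT4, ANGPTL4 and CEBPB kept their calls in all 14, PPARGC1A lost its call in 6, FDX1 in 4, SLC2A4 in 2, UCP2 in 5, RYR2 in 7 and XBP1 in 8. The causes were not tested. No paired analysis was possible because the 6 minipigs carry 6 different numbers.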
